A study of Mus musculus with 14 samples.

Results

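The Hox genes measured here are those of the 4 mouse clusters, HoxA to HoxD, whose symbol joins a cluster letter to a position number. A gene was taken where the platform annotation gave it a probe in the authors' matrix. This gave 20 Hox genes with 24 probes, of 10478 genes tested, and RefSeq lists 39 Hox genes in the 4 clusters. All 20 passed the filter on dim probes, which kept a probe detected on at least 4 of the 14 arrays. Hoxa4, Hoxb9 and Hoxd12 passed it only through arrays of pregnant uterus. HoxA, on chromosome 6, had 7 of its 11 genes measured (Hoxa4, Hoxa5, Hoxa7, Hoxa9, Hoxa10, Hoxa11 and Hoxa13). HoxB, on chromosome 11, had 7 of 10 (Hoxb2 to Hoxb7 and Hoxb9). HoxC, on chromosome 15, had 3 of 9 (Hoxc6, Hoxc9 and Hoxc10), and HoxD, on chromosome 2, had 3 of 9 (Hoxd8, Hoxd9 and Hoxd12). The other Hox genes were not analysed here.

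Hox genes encode homeodomain transcription factors that give cells their position along the head-to-tail axis of the embryo. Within a cluster the genes lie in the order in which they are used, so that low paralogue numbers are active early and near the hindbrain and high numbers late and near the tail and in the limb buds. Some of them also stay active in the adult female reproductive tract: Hoxa9 to Hoxa13 pattern its regions from oviduct to vagina, and Hoxa10 and Hoxa11 act in the endometrial stroma at implantation and decidualization. A uterus that holds conceptuses can therefore give Hox RNA from maternal tissue and from embryos.

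The RNA came from uteri of C57BL/6 mice aged 8 weeks, in 3 groups. The non-pregnant group had 5 samples with no treatment named. The PBS group had 5 samples from pregnant mice given phosphate-buffered saline, and the PC61 group had 4 samples from pregnant mice given PC61, an antibody against CD25 used against regulatory T cells. Pregnancies were sampled at 12 days after fertilization, and the tissue is named as uterus without a statement on whether conceptuses were removed. The labels do not say that samples came from separate animals, so the spread behind each p-value is that of these samples and may be technical. In whole-tissue RNA, fewer cells of a type and less RNA per cell cannot be told apart.

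Each sample had 1 Illumina BeadChip array, on which 16607 to 19729 probes were detected (detection p under 0.01), 13 to 20 of the 20 Hox genes among them. Levels are background-corrected, quantile-normalized log2 intensities, and 1 unit is a doubling of the signal. Pairwise correlations over all genes were 0.939 to 0.989 among non-pregnant, 0.971 to 0.987 among PBS and 0.861 to 0.980 among PC61 arrays. The PC61 arrays stood apart from each other in embryo and placenta markers as well, as described further on, so each PC61 result is also given by array. On the non-pregnant arrays 2 of 12 neural tube markers, 7 to 9 of 15 somite and limb bud markers and 2 or 3 of 17 trophoblast markers were detected. On the PBS arrays these numbers were 11 or 12, 14 or 15, and 17.

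The first comparison set pregnant against non-pregnant uterus. In the PBS group 7 Hox genes were higher than in the non-pregnant group, Hoxa4, Hoxa5, Hoxa7, Hoxb9, Hoxc6, Hoxc9 and Hoxd12, with differences of 0.69 to 3.30 on the log2 scale (n = 5 arrays in each group, limma). Another 5 were lower, Hoxa11, Hoxb6, Hoxb7, Hoxd8 and Hoxd9, with differences of -1.91 to -1.24. The remaining 8 did not pass an adjusted p of 0.05. Of all genes tested, 22.9% were called higher and 23.7% lower (46.6% in either direction), against 35% and 25% of the Hox genes. Groups did not overlap for 9 Hox genes that were higher (21.1% of all genes) and 4 that were lower (20.1% of all genes). Of those higher, Hoxa4, Hoxb9 and Hoxd12 passed the filter only through pregnant arrays, so their entry was not independent of their rise. The median difference was 0.11 over the Hox genes and -0.03 over all genes, and the median size of the difference, sign ignored, was 1.38 and 0.50. Scaling by each array's median in place of quantiles, under which the median difference of all genes was 0.16, gave 9 higher and 4 lower. Without non-pregnant array 1 or PBS array 4 the number called higher was 4. Restricted to probes detected on all 14 arrays, 12 Hox genes were tested, with 3 higher and 4 lower (41.1% of all genes called).

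**Figure D1:**
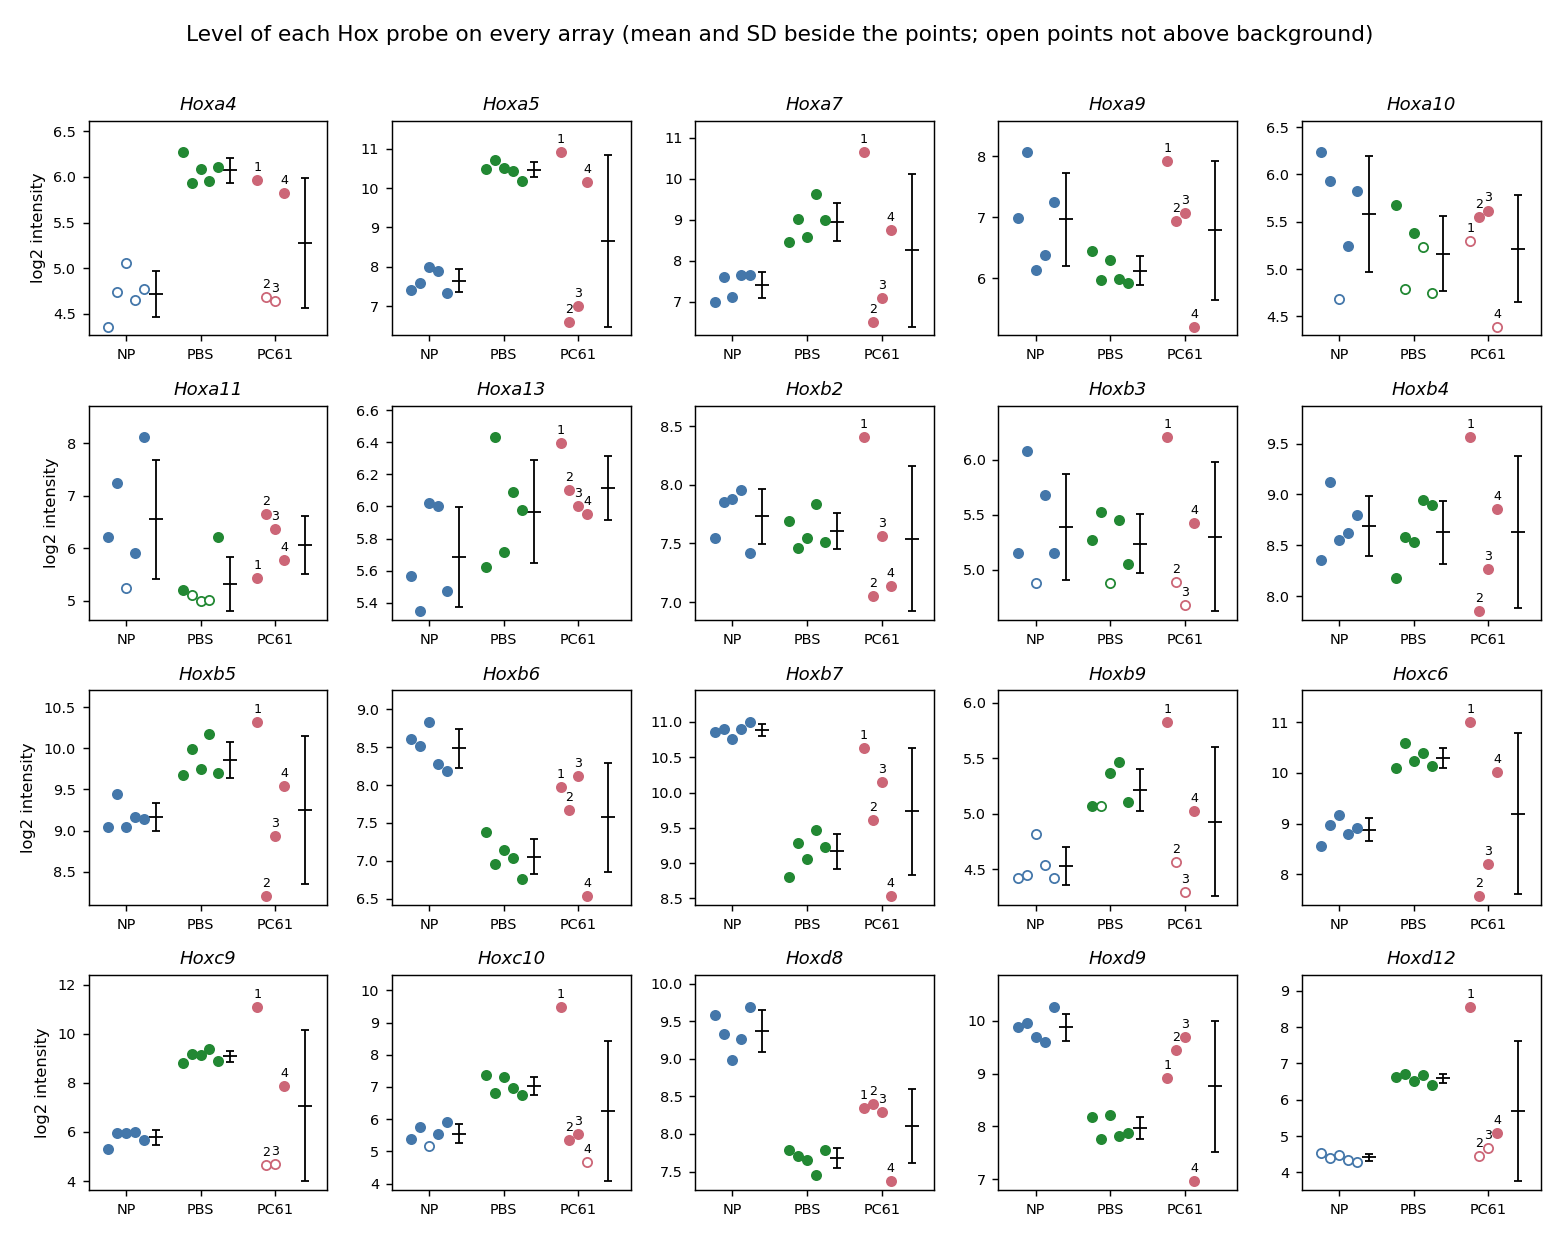
Level of each of the 20 Hox genes (log2 normalized intensity, vertical axis) on the 5 non-pregnant, 5 PBS and 4 PC61 arrays. Points are single arrays, open where the probe was not above background; the mean and SD of each group stand beside its points, and PC61 arrays are numbered. Hoxa5, Hoxc9 and Hoxd12 were higher on every PBS array than on any non-pregnant array, Hoxd8, Hoxd9 and Hoxb7 were lower, and the PC61 arrays are spread most widely for Hoxc9, Hoxa5 and Hoxc10.

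Hoxc9, a HoxC gene of the thoracic region of the spinal cord and vertebral column, had the largest difference. The 5 non-pregnant arrays gave Hoxc9 levels of 5.32, 5.97, 5.94, 5.99 and 5.65, the 5 PBS arrays 8.82, 9.16, 9.13, 9.38 and 8.89, and the 4 PC61 arrays 11.09, 4.64, 4.69 and 7.87. Every PBS array lay far above every non-pregnant array. The fold was 9.86 (log2 difference 3.30, SE 0.90, adjusted p = 0.008). Hoxa5, which acts in the cervical and upper thoracic skeleton and in lung development, followed. For Hoxa5, the non-pregnant arrays read 7.41, 7.59, 8.00, 7.91 and 7.32, the PBS arrays 10.49, 10.71, 10.50, 10.43 and 10.18 and the PC61 arrays 10.91, 6.60, 6.99 and 10.16. The groups did not overlap, and the rise was 7.06-fold (log2 2.82, SE 0.65, adjusted p = 0.00272). Hoxa4 levels were 4.36, 4.74, 5.06, 4.65 and 4.77 on the non-pregnant arrays, 6.27, 5.94, 6.08, 5.96 and 6.10 on the PBS arrays and 5.96, 4.69, 4.64 and 5.82 on the PC61 arrays. Hoxa4, the neighbour of Hoxa5 toward the 3′ end of HoxA, was not detected on any non-pregnant array and was detected on all 5 PBS arrays, with no overlap. Its mean was at least 1.85-fold higher in the PBS group (log2 difference 1.35, SE 0.25, adjusted p = 0.000492).

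Hoxd12, a late gene of HoxD known for its part in digits and the distal limb, was detected on 0 of 5 non-pregnant and 5 of 5 PBS arrays. The 5 non-pregnant arrays gave Hoxd12 levels of 4.54, 4.41, 4.48, 4.35 and 4.28, the 5 PBS arrays 6.62, 6.70, 6.505, 6.69 and 6.40, and the 4 PC61 arrays 8.55, 4.44, 4.67 and 5.09. Every PBS array lay above every non-pregnant array. The PBS mean was at least 2.64-fold higher, a bound set by the detection limit (log2 difference 2.18, SE 0.57, adjusted p = 0.00609). Hoxc10, a gene of lumbar motor neurons and the hindlimb, had a similar separation. For Hoxc10, the non-pregnant arrays read 5.39, 5.76, 5.17, 5.53 and 5.91, the PBS arrays 7.36, 6.81, 7.30, 6.98 and 6.76 and the PC61 arrays 9.48, 5.34, 5.54 and 4.67. The groups did not overlap for its probe, and the difference of 1.49 (SE 0.65) had an adjusted p of 0.0749. Its second probe differed by 0.99. The shared estimate of spread includes the PC61 arrays, on which Hoxc10 had an SD of 2.18 against 0.29 in the non-pregnant and 0.28 in the PBS group. Fitted with the PBS and non-pregnant arrays alone, 3 Hox genes more passed the threshold, Hoxc10 (adjusted p = 1.3e-05) and Hoxb5 (0.00102) higher and Hoxa9 (0.0332) lower, with 54.4% of all genes called.

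The other genes that rose were Hoxc6, Hoxa7 and Hoxb9, and each of these calls depended on single arrays. Hoxc6 levels were 8.56, 8.97, 9.17, 8.79 and 8.91 on the non-pregnant arrays, 10.11, 10.59, 10.23, 10.39 and 10.14 on the PBS arrays and 11.003, 7.57, 8.19 and 10.01 on the PC61 arrays. The groups did not overlap, and Hoxc6, a gene of the forelimb level and thorax, rose by 1.41 (SE 0.48, adjusted p = 0.0265). Its call was lost without non-pregnant array 1, PBS array 2 or PBS array 4. The 5 non-pregnant arrays gave Hoxa7 levels of 6.99, 7.59, 7.12, 7.65 and 7.66, the 5 PBS arrays 8.45, 9.01, 8.58, 9.63 and 8.99, and the 4 PC61 arrays 10.64, 6.51, 7.09 and 8.75. Hoxa7, a thoracic gene, had no overlap and rose by 1.53 (SE 0.58, adjusted p = 0.0419). Its call was lost under 12 alternatives, among them leaving out any 1 of the non-pregnant arrays or any of PBS arrays 2 to 5. Hoxb9, another thoracic gene, was not detected on any non-pregnant array and was detected on 4 of 5 PBS arrays. For Hoxb9, the non-pregnant arrays read 4.42, 4.45, 4.82, 4.54 and 4.42, the PBS arrays 5.07, 5.07, 5.36, 5.47 and 5.10 and the PC61 arrays 5.82, 4.57, 4.29 and 5.02. Its rise of 0.69 (SE 0.23, adjusted p = 0.0258) came to at least 1.02-fold on the bound, with no overlap between groups. Its call was lost under 7 alternatives, among them without non-pregnant array 1 or 5 and without PBS array 3 or 4. Hoxb5, a gene of the shoulder level in HoxB, did not overlap between groups, with 9.04 to 9.44 on the non-pregnant and 9.67 to 10.18 on the PBS arrays, but its difference of 0.69 had an adjusted p of 0.0652.

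The genes that were lower in pregnancy included the pair Hoxd8 and Hoxd9, which lie next to each other among the measured genes of HoxD. Hoxd8 levels were 9.58, 9.33, 8.99, 9.27 and 9.69 on the non-pregnant arrays, 7.78, 7.71, 7.65, 7.46 and 7.79 on the PBS arrays and 8.35, 8.39, 8.30 and 7.37 on the PC61 arrays. Every PBS array lay below every non-pregnant array, and Hoxd8, a gene of the trunk, fell 3.23-fold (log2 -1.69, SE 0.20, adjusted p = 1.4e-05). The 5 non-pregnant arrays gave Hoxd9 levels of 9.88, 9.96, 9.69, 9.60 and 10.26, the 5 PBS arrays 8.19, 7.76, 8.22, 7.81 and 7.88, and the 4 PC61 arrays 8.92, 9.45, 9.70 and 6.96. Hoxd9, a gene of the lumbosacral skeleton, the limbs and the developing reproductive tract, likewise had no overlap between PBS and non-pregnant arrays, and it fell 3.75-fold (log2 -1.91, SE 0.39, adjusted p = 0.00112). The second Hoxd9 probe differed by -2.25. Hoxd12, in the same cluster, moved the opposite way, so that the 3 measured HoxD genes did not share a direction.

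The 250 bases before the start of these HoxD genes and of Hoxa5 are shown because these 4 genes had the largest differences, in both directions, among the members with a window in the RefSeq promoter table (10 of the 20 genes, 11 windows, GRCm38.p6). Each runs 5′ to 3′ on the gene's own strand, and capitals mark matches to the motifs searched. Hoxd12 is at chr2:74674763-74675012 on the plus strand, Hoxd9 at chr2:74697513-74697762 on the plus strand, Hoxd8 at chr2:74704365-74704614 on the plus strand, and Hoxa5 at chr6:52204588-52204837 on the minus strand.
Hoxd12: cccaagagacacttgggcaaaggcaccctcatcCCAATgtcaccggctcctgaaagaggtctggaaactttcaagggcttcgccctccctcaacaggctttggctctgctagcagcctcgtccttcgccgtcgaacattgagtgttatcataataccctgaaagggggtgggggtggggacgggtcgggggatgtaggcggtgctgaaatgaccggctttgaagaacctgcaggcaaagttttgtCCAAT
Hoxd9: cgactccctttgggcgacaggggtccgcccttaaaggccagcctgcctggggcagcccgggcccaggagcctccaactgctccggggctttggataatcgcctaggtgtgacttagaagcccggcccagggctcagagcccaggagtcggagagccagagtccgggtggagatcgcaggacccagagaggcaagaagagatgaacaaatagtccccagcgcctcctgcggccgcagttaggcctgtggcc
Hoxd8: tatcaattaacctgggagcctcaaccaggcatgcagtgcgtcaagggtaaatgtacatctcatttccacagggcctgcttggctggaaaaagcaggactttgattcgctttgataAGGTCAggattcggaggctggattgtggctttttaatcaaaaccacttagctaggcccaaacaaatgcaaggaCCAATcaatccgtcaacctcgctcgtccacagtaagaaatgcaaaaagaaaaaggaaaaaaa
Hoxa5: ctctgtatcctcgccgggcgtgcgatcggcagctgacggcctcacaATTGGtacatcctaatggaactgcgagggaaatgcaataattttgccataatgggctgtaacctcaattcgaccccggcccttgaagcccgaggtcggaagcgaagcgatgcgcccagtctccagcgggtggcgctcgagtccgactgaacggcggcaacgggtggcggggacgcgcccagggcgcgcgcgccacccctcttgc
The motifs were searched on both strands: the TATA box TATAAA, the CCAAT box CCAAT, a CDX2 core TTTATGG, a nuclear receptor half-site AGGTCA and a PBX-HOX composite TGATTNAT. CCAAT stood in 5 of the 11 Hox windows and in 33.8% of all 32851 windows. Hoxd12, which rose, held it 217 and 5 bases before the start, Hoxd8, which fell, held it 62 bases before the start, and Hoxa5 held it 204 bases before the start on the opposite strand. AGGTCA was in 2 Hox windows, Hoxb4 and Hoxd8 (14% of all windows), and TATAAA in 1, Hoxa10 (12.4%). The other motifs were in no Hox window; in all windows TTTATGG was in 2.43% and TGATTNAT in 2.82%. The median GC content was 55.6% in the Hox windows and 52.4% in all windows, with a CpG observed-to-expected ratio of 0.52 and 0.374.

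The HoxB genes called lower were Hoxb6 and Hoxb7, neighbouring genes of the trunk in the middle of the cluster, while Hoxb9, given above, was called higher. For Hoxb7, the non-pregnant arrays read 10.86, 10.90, 10.75, 10.91 and 10.998, the PBS arrays 8.80, 9.28, 9.06, 9.47 and 9.23 and the PC61 arrays 10.63, 9.61, 10.15 and 8.53. The PBS arrays all lay below the non-pregnant arrays, and Hoxb7 was 3.28-fold lower in the PBS group (log2 -1.71, SE 0.29, adjusted p = 0.000291), and its second probe differed by -2.01. Hoxb6 levels were 8.61, 8.51, 8.83, 8.27 and 8.19 on the non-pregnant arrays, 7.38, 6.96, 7.14, 7.03 and 6.76 on the PBS arrays and 7.98, 7.67, 8.11 and 6.53 on the PC61 arrays. Hoxb6 was 2.69-fold lower (log2 -1.43, SE 0.26, adjusted p = 0.000453), again with no overlap. Hoxb2, Hoxb3 and Hoxb4, genes of the hindbrain and neck toward the 3′ end, differed by -0.12, -0.15 and -0.06 (adjusted p = 0.684 to 0.874), with overlapping groups.

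Hoxa9, Hoxa10, Hoxa11 and Hoxa13 are the HoxA genes of the reproductive tract. The 5 non-pregnant arrays gave Hoxa11 levels of 6.22, 7.25, 5.23, 5.91 and 8.12, the 5 PBS arrays 5.21, 5.11, 4.99, 5.01 and 6.22, and the 4 PC61 arrays 5.44, 6.65, 6.37 and 5.78. PBS arrays 1 to 4 lay below every non-pregnant array and PBS array 5 among them. Hoxa11, a stromal regulator in the uterus, fell by 1.24 (limma, SE 0.46, adjusted p = 0.0381). It was detected on 4 of 5 non-pregnant and 2 of 5 PBS arrays, so the 1.24 is no firm measure of the size of the fall. The call was lost under 9 alternatives, including without non-pregnant array 2 or 5 and without PBS array 1, 2, 3 or 4. For Hoxa10, the non-pregnant arrays read 6.23, 5.93, 4.69, 5.24 and 5.82, the PBS arrays 5.68, 4.79, 5.38, 5.24 and 4.74 and the PC61 arrays 5.30, 5.55, 5.62 and 4.39. Hoxa10, which the endometrium needs for decidualization, was detected on 4 of 5 non-pregnant and 2 of 5 PBS arrays, and its difference of -0.42 (SE 0.31) did not pass the test (adjusted p = 0.288). Hoxa9, a gene of the oviduct in the adult tract, differed by -0.84 (adjusted p = 0.129), with 6.13 to 8.07 on the non-pregnant and 5.92 to 6.44 on the PBS arrays. Hoxa13, a gene of the lower tract and the distal limb, differed by 0.28 (adjusted p = 0.231), with 5.35 to 6.02 and 5.62 to 6.43.

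By paralogue number, 1 of 4 measured genes of groups 1 to 4 was called higher and 0 lower. Of the 7 genes of groups 5 to 8, 3 were called higher and 3 lower, and of the 9 genes of groups 9 to 13, 3 were called higher and 2 lower. Paralogues of 1 number were not called in 1 direction: Hoxa9 was not called, Hoxb9 and Hoxc9 rose and Hoxd9 fell, and in group 7 Hoxa7 rose and Hoxb7 fell. By cluster, HoxA had 3 higher and 1 lower of 7, HoxB 1 higher and 2 lower of 7, HoxC 2 higher and 0 lower of 3, and HoxD 1 higher and 2 lower of 3. Of all genes 22.9% were called higher and 23.7% lower, and with 3 to 9 genes in a group or cluster no difference between them was tested.

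**Figure D2:**
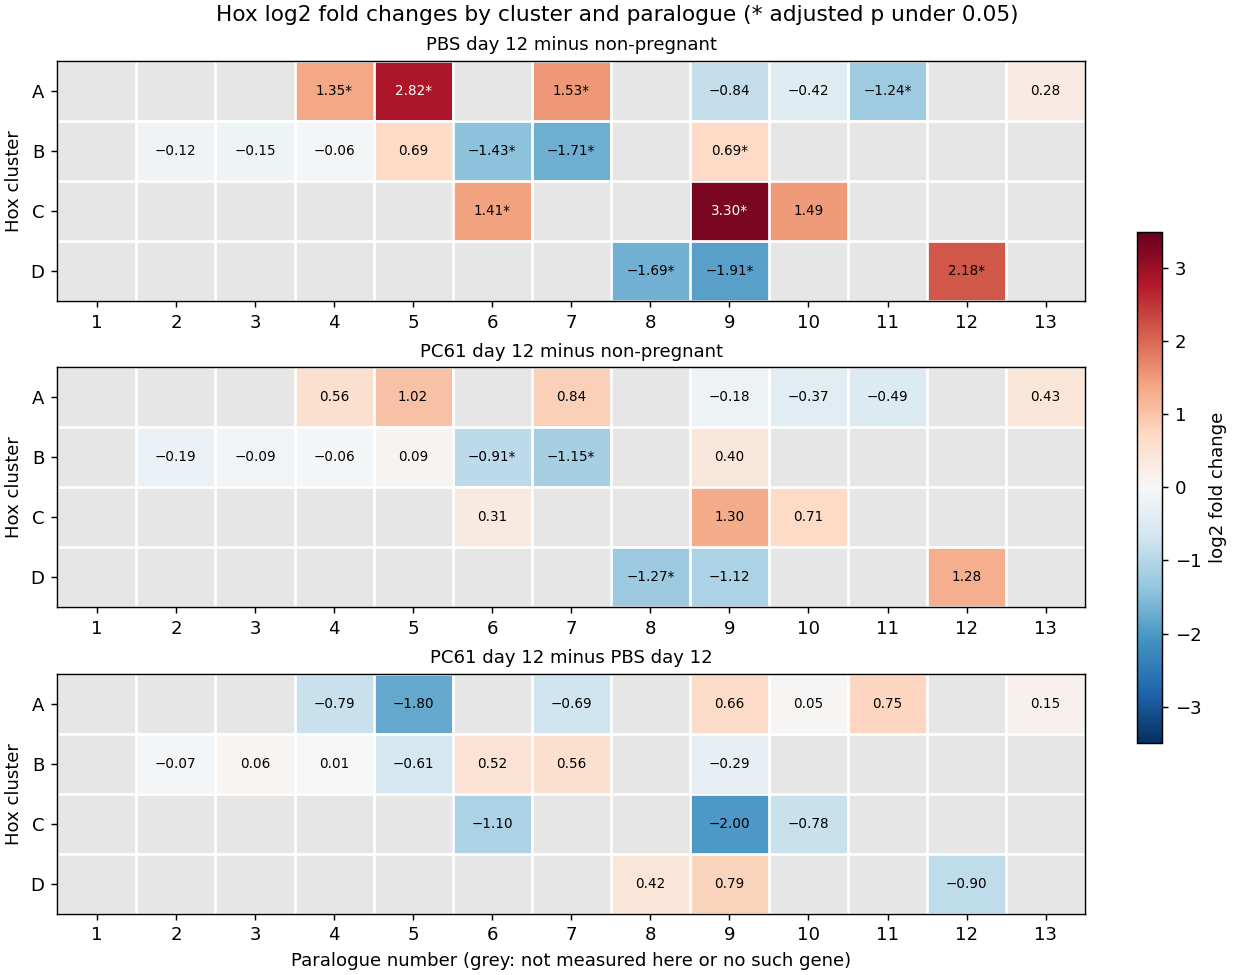
Log2 differences of the measured Hox genes laid out by cluster (rows) and paralogue number (columns), with 1 panel for each comparison; colour and the printed value give the difference, an asterisk an adjusted p under 0.05, and grey cells hold no measured gene. PBS minus non-pregnant shows red (higher) and blue (lower) cells side by side in HoxA, HoxB and HoxD, and the panel of PC61 minus PBS holds no asterisk.

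The second comparison, which the study was designed for, set PC61-treated against PBS-treated pregnant uterus. No Hox gene was called (0 of 20; 0% of the 10478 genes, limma). The differences ran from -2.005 (Hoxc9) to 0.79 (Hoxd9), with a median of -0.03 over the Hox genes and 0.01 over all genes. Adjusted p-values of the Hox genes ran from 0.195 to 0.993, and the lowest of any gene was 0.154. At an unadjusted p under 0.05 there were 3 Hox genes, Hoxa4 (difference -0.79, SE 0.26), Hoxa5 (-1.80, SE 0.69) and Hoxc6 (-1.10, SE 0.51), beside 15.5% of all genes. No Hox gene had groups without overlap (1.81% of all genes). The PC61 arrays differed among themselves more than the other arrays did. The median SD of a Hox gene was 0.822 in the PC61 group, against 0.282 in the non-pregnant and 0.229 in the PBS group, and over all genes it was 0.407, 0.253 and 0.245. An SD above 1 was found for 8 of the 20 Hox genes in the PC61 group and for 11.2% of all genes.

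The difference from the PBS group depended on the array. On PC61 array 1, 16 of the 20 Hox genes lay above the highest PBS array and 0 below the lowest (33.8% and 23.8% of all genes). On array 4 it was 0 above and 15 below (15.5% and 19.4% of all genes). Arrays 2 and 3 each had 6 above, with 11 and 10 below; over all genes 32.1% and 31.6% were above and 30.8% and 32.5% below. The 7 Hox genes called higher in PBS than in non-pregnant uterus had a median of 0.71 above the PBS mean on array 1, and the median was -2.42 on array 2, -1.92 on array 3 and -0.28 on array 4. All 7 were below the PBS range on arrays 2 and 3, where Hoxa4, Hoxb9, Hoxc9 and Hoxd12 were not above background, so that their differences there are limits only. The same median was -1.94 to -1.34 on the non-pregnant arrays, so PC61 array 2 lay below these and array 3 among them. The array 3 median was the value of Hoxd12, a background reading, so that placement is not firm. Hoxa5, Hoxc6 and Hoxc9 were below the non-pregnant range on PC61 arrays 2 and 3, and Hoxa7 was below it on array 2. Hoxb9 also read lower on array 3, but neither that array nor any non-pregnant array detected it. The share of all genes below that range was not counted, so these single values have no background to be read against. For the 5 called lower the medians relative to the PBS mean were 0.92, 0.71, 1.06 and -0.53 on PC61 arrays 1 to 4. These sets were chosen on the PBS arrays, which are also the reference here, so their values are a description.

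**Figure D3:**
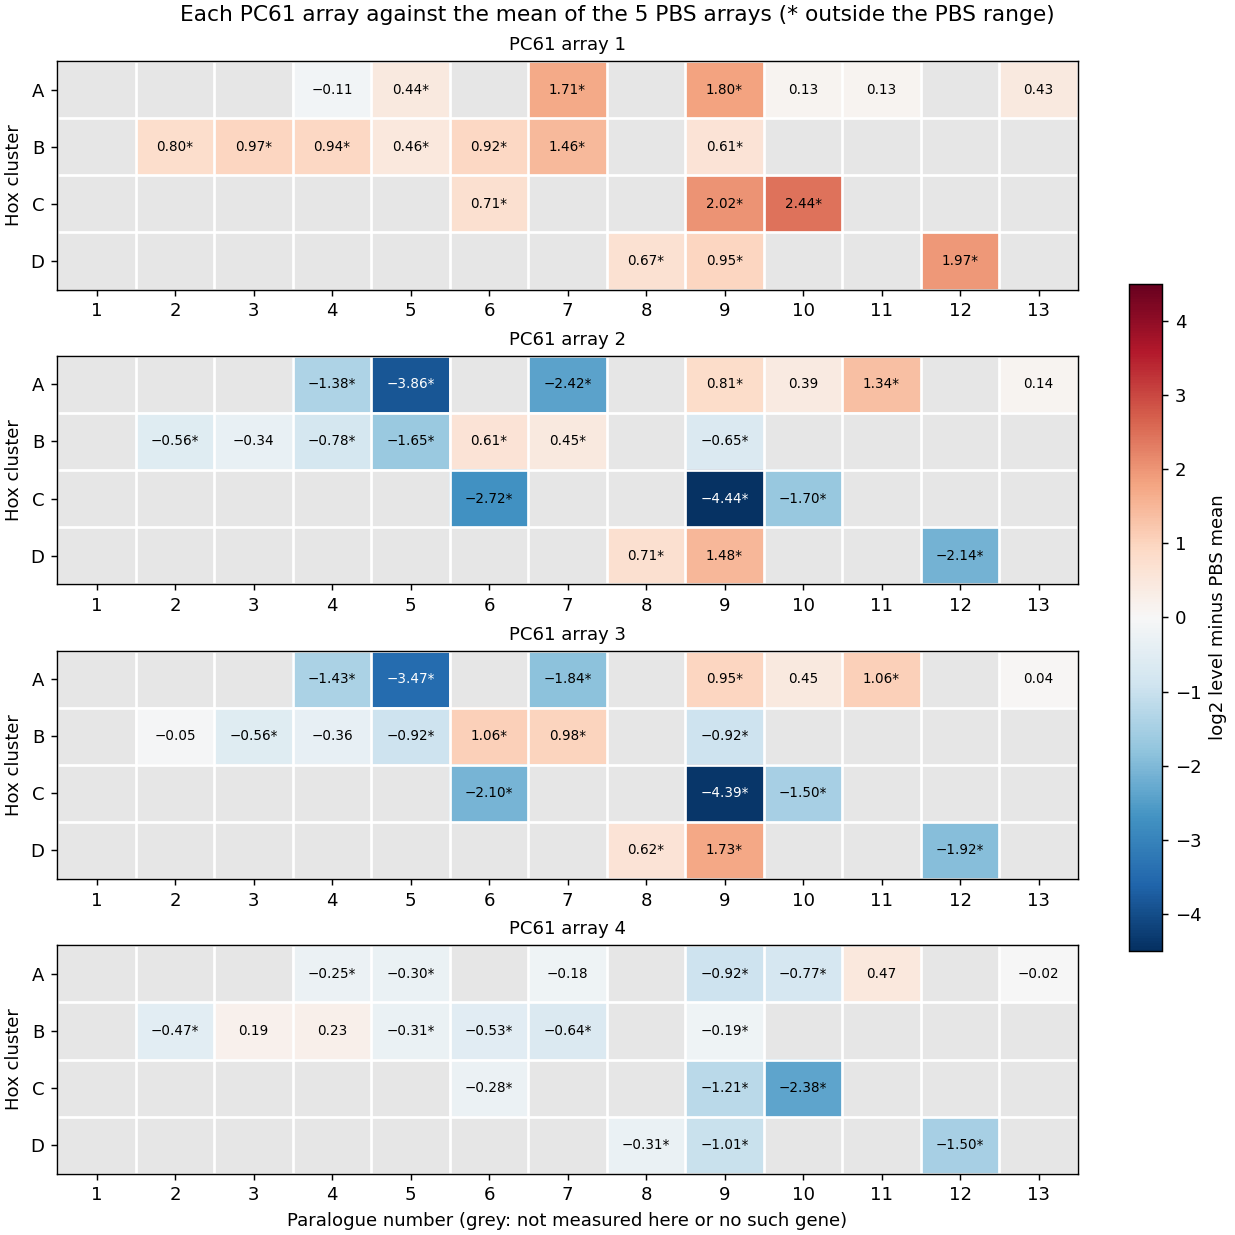
Level of each Hox gene on each PC61 array minus its PBS mean (log2), laid out by cluster (rows) and paralogue number (columns) with 1 panel for each array; an asterisk marks a level outside the range of the 5 PBS arrays. Array 1 is above that range for 16 of 20 genes and array 4 below it for 15, while arrays 2 and 3 are far below it for Hoxa5, Hoxc6 and Hoxc9, the last not above background on either, and above it for Hoxd9.

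Hoxd12 and Hoxc10, from the part of their clusters used near the tail, were followed array by array. On the PC61 arrays, given above, Hoxd12 was 1.97 above the PBS mean on array 1, and the other arrays were below the PBS range. It was not above background on arrays 2 and 3, and on array 4 it was detected at -1.50 from the PBS mean. Hoxc10 stood 2.44 above the PBS mean on array 1, was detected below the PBS range on arrays 2 and 3, and was not above background on array 4. Without PC61 array 1, Hoxc10 (-1.88, adjusted p = 0.00987) and Hoxd12 (-1.88, adjusted p = 0.000188) were the only genes of all those tested that passed the threshold against PBS. These fitted differences include arrays on which the probe was not above background, arrays 2 and 3 for Hoxd12 and array 4 for Hoxc10, and are no measure of the size of the change. Without PC61 array 4, 7 Hox genes passed, Hoxa9, Hoxb6, Hoxb7, Hoxd8 and Hoxd9 higher and Hoxa4 and Hoxa5 lower, and 14.6% of all genes passed. Weighting the arrays by their fit, which gave PC61 arrays 1 and 4 weights of 0.166 and 0.173 and arrays 2 and 3 weights of 2.11 and 1.39, called 6 Hox genes higher and 9 lower (38.4% of all genes). Scaling by array medians in place of quantiles called Hoxa4 lower (limma, -1.07, adjusted p = 0.0318), with 2.89% of all genes called. Whether any Hox gene is called between PC61 and PBS thus depends on how single arrays enter the fit and on the scaling.

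On array 4 the members of low and middle number stayed closer to the PBS mean than some of those of high number. The 11 members of numbers 2 to 8 lay between -0.64 (Hoxb7) and 0.23 (Hoxb4) from it. Of the 9 members of numbers 9 to 13, Hoxd12, Hoxc9 (-1.21), Hoxd9 (-1.01) and Hoxa9 (-0.92) lay further below, Hoxc10 and Hoxa10 were below the PBS range but not above background, and Hoxb9 (-0.19), Hoxa13 (-0.02) and Hoxa11 (0.47) lay within the same span or above it. On array 1 the 4 largest deviations were those of Hoxc10, Hoxc9 (2.02), Hoxd12 and Hoxa9 (1.80), all upward. Next came Hoxa7 (1.71) and Hoxb7 (1.46), of middle number. Of the high numbers, Hoxa10 (0.13, not above background), Hoxa11 (0.13) and Hoxa13 (0.43) stayed within the PBS range there. These are values of single arrays and carry no test.

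Markers of other cell types also differed between the PC61 arrays, and the lists did not all follow the Hox values. Their part in the Hox results was not tested. The 15 somite, limb bud and mesoderm markers, as a mean relative to PBS, were at 0.80, -1.38, -1.62 and -0.25 on PC61 arrays 1 to 4, and the non-pregnant arrays were at -1.82 to -1.41. The 12 neural tube and neuron markers were at 0.12, 0.05, -0.67 and -0.03, with 11 or 12 of 12 detected on every PC61 array, and the non-pregnant arrays were at -3.13 to -3.02. On every PC61 array the mean of the neural markers was thus far above the non-pregnant arrays. Elavl3, an RNA-binding protein of neurons, was at 10.05, 10.15, 9.47 and 10.14 on PC61 arrays 1 to 4. Members of the neural list did not all move alike: on arrays 2 and 3 Isl1, a transcription factor of motor neurons, was at 6.45 and 6.24 (9.96 to 10.37 on the PBS arrays), and Dbx1, a transcription factor of spinal interneurons, was at 9.85 and 8.94 (7.39 to 7.91 on the PBS arrays). Col2a1, the cartilage collagen of the somite and limb bud list, was at 12.19, 8.20, 8.26 and 11.17 (4.28 to 4.64 on the non-pregnant and 10.74 to 11.31 on the PBS arrays). Members of this list also moved unlike each other. On arrays 2 and 3 Shh was at 6.57 and 5.56 (4.25 to 4.61 on the non-pregnant and 5.98 to 6.72 on the PBS arrays). Barx1 was at 4.32 and 4.42 there (4.28 to 4.58 on the non-pregnant arrays). The 17 trophoblast and placenta markers were at -5.43, -5.10, -2.97 and 0.48, with 6, 10, 11 and 17 detected, against -6.00 to -5.84 on the non-pregnant arrays. The 12 yolk sac and embryonic red cell markers were at -0.36, -3.19, -2.49 and 0.21, and the non-pregnant arrays at -6.83 to -6.42. Array 4 was the PC61 array nearest to PBS in trophoblast markers. The 11 smooth muscle markers, of the myometrium, were at 1.32, 1.86, 1.65 and -0.76, and the non-pregnant arrays at 0.93 to 1.59.

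**Figure D4:**
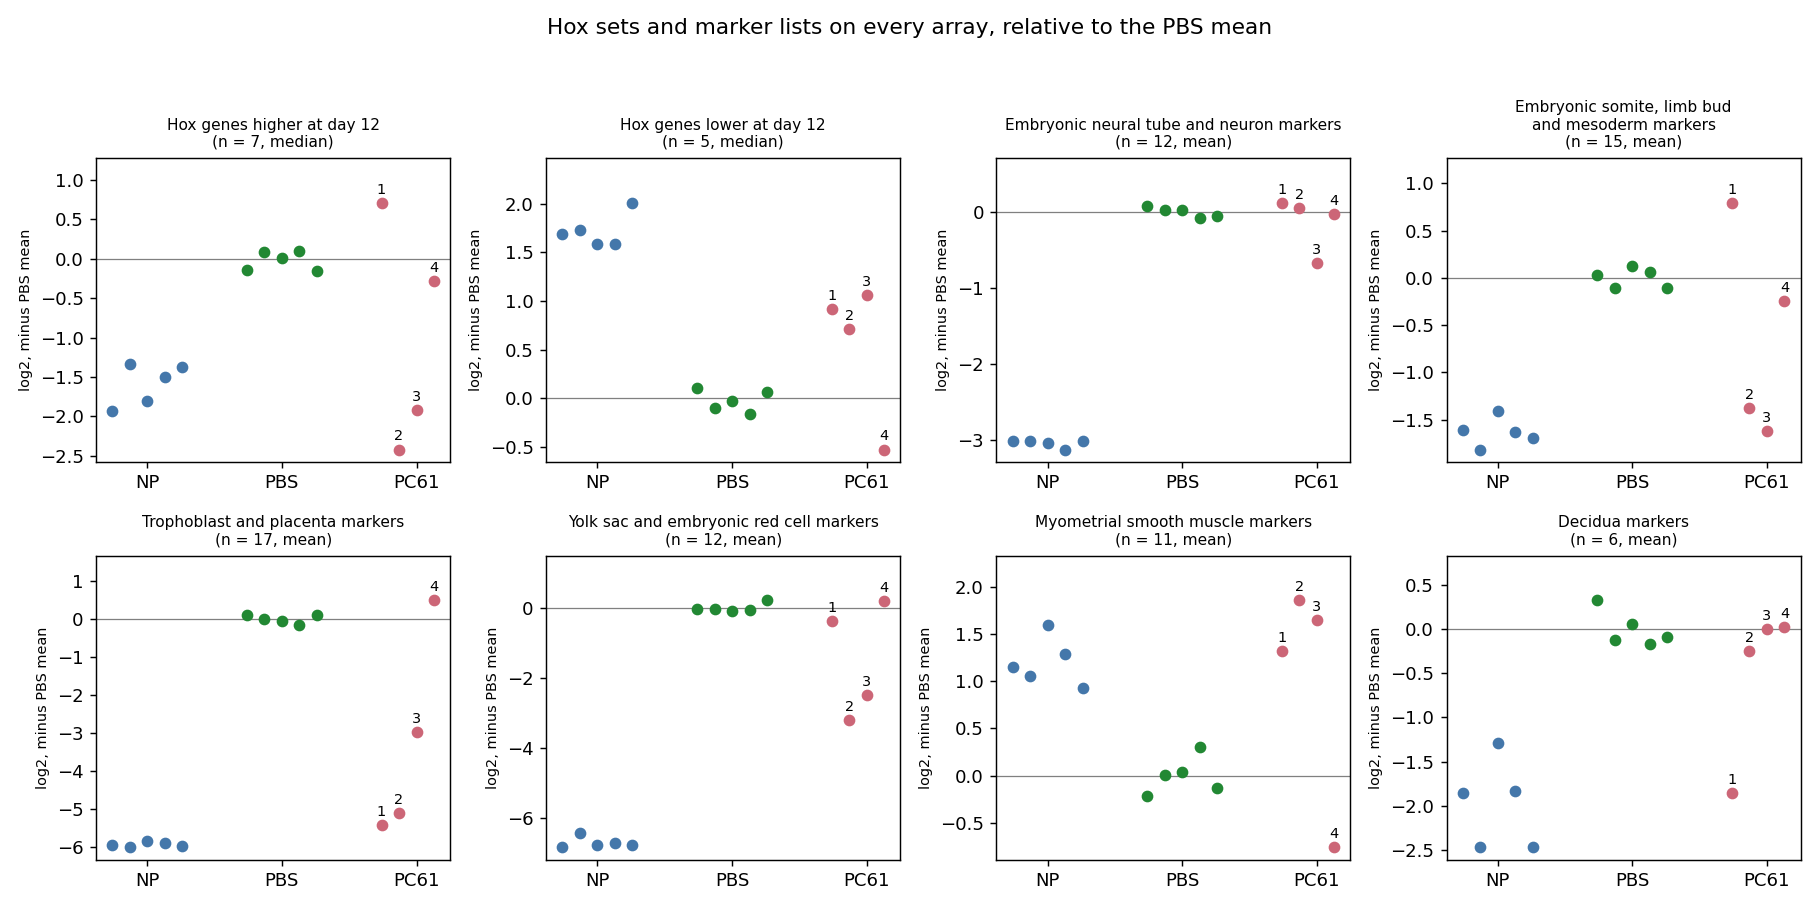
The 2 Hox sets called between PBS and non-pregnant uterus (median) and 6 marker lists (mean) on every array, as log2 level minus the PBS mean, with n the number of genes; PC61 arrays are numbered. The Hox genes higher at day 12 and the somite and limb bud markers are above the PBS arrays on PC61 array 1. On PC61 arrays 2 and 3 the mean of the somite and limb bud markers is near the non-pregnant arrays, though single members are not. The median of the Hox genes higher at day 12 is below the non-pregnant arrays on PC61 array 2 and among them on array 3. The array 3 median is the value of Hoxd12, which was not above background there. The neural markers are far above the non-pregnant arrays on all 4 PC61 arrays, with array 3 lowest at -0.67.

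The third comparison set PC61-treated pregnant against non-pregnant uterus, and it shares its arrays with both others. Hoxb6 (-0.91, adjusted p = 0.0221), Hoxb7 (-1.15, adjusted p = 0.0124) and Hoxd8 (-1.27, adjusted p = 0.000489) were lower, and their groups did not overlap. No Hox gene was called higher. Of all genes 13.7% were called higher and 14.6% lower, and 11.7% were lower with no overlap. Side by side, the differences from the non-pregnant group in PBS and PC61 uterus were -1.43 and -0.91 for Hoxb6, -1.71 and -1.15 for Hoxb7, and -1.69 and -1.27 for Hoxd8. For Hoxd9 they were -1.91 and -1.12 (adjusted p = 0.0552 in PC61), and for Hoxd12 they were 2.18 and 1.28 (adjusted p = 0.129 in PC61). Hoxd12 was not detected on any non-pregnant array, and its bounds were at least 2.64-fold in PBS and at least 1.42-fold in PC61. Hoxb6 was not called without non-pregnant array 3 or with only the 2 groups in the fit, and Hoxd9 was called lower under 6 alternatives, among them without PC61 array 2 or 3. Hoxa4 was called higher without PC61 array 2 or 3 (log2 0.76 and 0.77). It was not detected on any non-pregnant array, so these differences are limits only.

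Genes that work with Hox proteins or control Hox clusters were read from lists, against 22.9% of all genes called higher and 23.7% lower between PBS and non-pregnant uterus and a median difference of -0.03. Of 7 TALE cofactors, homeodomain proteins that bind DNA together with Hox proteins, 1 was higher in PBS than in non-pregnant uterus, Pbx3 (1.09), and 1 lower, Pknox2 (-0.90), with a list median of -0.06. Of 13 Cdx and retinoid genes, a pathway list whose members do not all switch on Hox genes, 6 were higher and 3 lower, with a median of 1.09. Crabp2, a retinoic acid binding protein, rose by 2.54, Cdx2, a caudal homeodomain factor also used by trophoblast, rose by 3.82, and Aldh1a1, a retinoic acid synthesis enzyme, fell by 2.56. Cdx2 was detected on 0 non-pregnant arrays, so its difference is a limit only. It was at 8.01 to 8.35 on the PBS arrays, at 4.26 to 4.51 on the non-pregnant arrays, and at 5.59, 4.58, 5.39 and 8.64 on the PC61 arrays. Cdx2 was thus below the PBS range on PC61 arrays 1 to 3 and above it on array 4. Of 21 Polycomb and Trithorax genes, which keep Hox clusters silent or active, 8 were higher and 1 lower (median 0.11), with Cbx2 (2.12) and Ezh2 (1.90), both of Polycomb complexes, higher and Ring1 (-0.92) lower. Of 10 genes beside or within the clusters, 3 were higher and 0 lower (median 0.06). Evx1, the homeobox gene at the 5′ end of HoxA, was at 4.31 to 4.61 on the non-pregnant and 5.95 to 6.60 on the PBS arrays (difference 1.78, adjusted p = 0.000282) and at 6.90, 4.91, 5.09 and 6.09 on the PC61 arrays. It was detected on 0 non-pregnant arrays, so the 1.78 is a limit only.

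Among 21 genes that pattern the reproductive tract or act with uterine Hox genes, 5 were higher and 11 lower in PBS than in non-pregnant uterus, with a median of -0.76. The 4 of lowest p were Lhx1 (5.54), a kidney, Müllerian duct and head organizer factor, Wnt7a (-2.80), an epithelial signal that maintains Hox expression in the uterus, Dlx6 (-1.93), a homeobox factor of the jaw and limb, and Wnt5a (-2.35), a stromal signal. Lhx1 was detected on 0 non-pregnant arrays, so its difference is a limit only. In the 5 lists together 0 genes were called between PC61 and PBS. Between PC61 and non-pregnant uterus the counts higher and lower were 1 and 0 of the cofactors, 3 and 1 of the Cdx and retinoid genes, 5 and 0 of the Polycomb and Trithorax genes, 1 and 0 of the genes beside the clusters, and 5 and 9 of the reproductive tract genes.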

How the data were processed

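The deposited scanner table holds, per the file headers, an average intensity and a detection p-value for each of 45281 probes on each of the 14 arrays. The authors' matrix holds log2 values of 16948 of these probes, with column medians of 7.96 to 7.99. Each matrix column had a rank correlation of 1 with the intensities of its own array, so larger values mean more signal and genes were not centred. The normalization behind it is not given in the sources used here. It chose the members and served as an alternative.

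The intensities were corrected and normalized with neqc of limma 3.58.1 under R 4.3.3 (normexp background inferred from the detection p-values, offset 16, quantile normalization, log2). Probes detected (p under 0.01) on at least 4 arrays were kept, 20967 in all, and each gene took its probe of highest mean. Symbols came from GEO's platform annotation, which gave 15469 probes 1 symbol and 5 probes several, which were left unnamed; RefSeq changed 0 symbols. Group means were compared with lmFit and eBayes over all 14 arrays (11 residual and 3.36 prior degrees of freedom), two-sided, with Benjamini-Hochberg adjustment over all 10478 genes of a comparison, and a gene was called at an adjusted p under 0.05. For a probe detected on no array of a group, the fold is a lower bound, with the dim group's arrays set to the lowest value of any detected probe where the probe itself read lower. The number of arrays limits the precision: the median SE over all genes was 0.214 for PBS against non-pregnant uterus and 0.227 for the other comparisons.

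The Hox genes and the 13 gene lists were chosen with earlier results of these data known. All Hox genes are accounted for, those called or without overlap are named with values, Hoxc10 and Hoxd12 are shown on every array, and up to 4 members of lowest p are named from each list. Exceptions, chosen after their values were seen, are Ring1, Krt8 and Krt18 in the comparison of PBS with non-pregnant uterus. On the PC61 arrays they are Isl1, Dbx1, Shh, Barx1 and the decidua genes. Alternatives were other values, background, offset, scaling, filters, probe rules, weights, priors, groups in the fit, a replicate block and leaving out each array. The files name no slide or scan batch. Promoter windows are from RefSeq, GRCm38.p6.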

Additional observations from a re-analysis of the deposited data

Results flagged for a closer look

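In 60 checks of a Hox gene within 1 group, a single array stood apart from the others of its group 3 times, and chance alone gives about 1 in 20. For Hoxd12, PC61 array 1 had the highest level at 8.554, with the nearest array at 5.087 and the lowest at 4.441. For Hoxd8, PC61 array 4 had the lowest level at 7.373, with the nearest at 8.297. For Hoxa11, PBS array 5 had the highest level at 6.219, with the nearest at 5.207. Each of these arrays bears on a value given for its gene, and no explanation was tested.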

How the results depend on the processing

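Each Hox result was recomputed under 27 alternatives, and no call reversed in direction. Of 532 differences of single genes for each comparison, 479 (PBS against non-pregnant), 488 (PC61 against PBS) and 500 (PC61 against non-pregnant) kept their direction and their side of the threshold. Between PBS and non-pregnant uterus, Hoxa4, Hoxa5, Hoxc9 and Hoxd12 were called higher and Hoxb6, Hoxb7, Hoxd8 and Hoxd9 lower under every alternative in which they were tested. With probes detected on all 14 arrays only, 12 Hox genes were tested and 3 were called higher. Leaving out 1 array gave 4 to 9 higher and 4 to 6 lower in that comparison, 0 to 5 higher and 0 to 2 lower between PC61 and PBS, and 0 to 1 higher and 2 to 4 lower between PC61 and non-pregnant uterus. Between PC61 and PBS, array weights gave 6 higher and 9 lower. Median scaling, under which the median difference of all genes was -0.30, gave 1 lower, Hoxa4, and the cause was not tested. Hoxb7 and Hoxd8 were lower in PC61 than in non-pregnant uterus under all alternatives. With replicate number as a block the counts higher and lower were 6 and 5 for PBS against non-pregnant, 0 and 0 for PC61 against PBS, and 0 and 3 for PC61 against non-pregnant uterus. The labels do not say what a shared number stands for, and the pairing is not settled by the data. Deviations of same-numbered arrays from the group means correlated at 0.003 to 0.33, -0.17 to 0.086 and -0.049 to 0.14 in the 3 comparisons, and 4 of 5, 1 of 4 and 2 of 4 arrays correlated best with their own number, which for PBS against non-pregnant is a hint of pairing. Under the block Hoxa7 lost its call in that comparison. Dim probes limit folds to bounds or leave differences as limits: Hoxa4, Hoxb9 and Hoxd12 on all non-pregnant arrays and on PC61 arrays 2 and 3 (with Hoxb3 and Hoxc9), and Hoxc10 and Hoxa10 on PC61 array 4. Hoxa11 was not above background on non-pregnant array 3 and PBS arrays 2, 3 and 4, nor was Hoxa10 on non-pregnant array 3 and PBS arrays 2, 4 and 5.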

Other observations

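Lists drawn up for maternal tissue that are not set beside the Hox genes in the comparisons were read in the same way. Whether the RNA of their members, Krt8 and Krt18 among them, came from maternal tissue or conceptuses was not tested. Of all genes 22.9% were called higher and 23.7% lower between PBS and non-pregnant uterus. Of 11 endometrial epithelium genes, 2 were higher in PBS than in non-pregnant uterus, Krt18 and Krt8, and 4 were lower, Wnt7a, Sprr2f, Ltf and Cldn3. Of 6 decidua genes, 3 were higher, Prl8a2, Cryab and Wnt6, and 1 was lower, Hand2. All 4 adipocyte genes, Adipoq, Cidec, Lep and Lpl, were lower. Between PC61 and PBS 0 genes of these lists were called (limma), and between PC61 and non-pregnant uterus the counts higher and lower were 0 and 7 for epithelium, 3 and 1 for decidua and 0 and 4 for adipocytes. The mean of the decidua list relative to PBS was -1.85 on PC61 array 1 and -0.25, 0.00 and 0.03 on arrays 2 to 4. Its members did not all move alike. On array 1 Prl8a2 was at 5.85 (12.78 to 14.02 on the PBS arrays). Cryab, Alpl and Gja1 were also below the PBS range there, Hand2 was within it and Wnt6 above it. On arrays 2 and 3 Cryab was above the PBS range and Alpl below it.

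Of the lists given by array, the counts higher and lower between PBS and non-pregnant uterus were 11 and 0 of 12 neural genes, 11 and 0 of 15 somite and limb bud genes, 17 and 0 of 17 trophoblast genes, 12 and 0 of 12 yolk sac and red cell genes, and 0 and 6 of 11 smooth muscle genes. Between PC61 and PBS they were 0 and 0 in each. Between PC61 and non-pregnant uterus they were 12 and 0, 3 and 1, 7 and 0, 11 and 0, and 1 and 0.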
